A study of Mus musculus with 4 samples.

Results

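Cytosolic ribosomal proteins, which together with ribosomal RNA build the small and the large ribosomal subunit, were examined in mouse muscle satellite cells with and without the calcitonin receptor. Members were all probe sets annotated with 1 gene symbol made of Rpl or Rps, a number and at most an ending a, l, x, y or p. This gave 96 probe sets of 43 genes among 45101 probe sets on the array. The large subunit (Rpl genes) had 42 probe sets of 22 genes and the small subunit (Rps genes) had 54 of 21. A further 109 probe sets named such a gene together with other symbols and were left out, and 27 ribosomal protein genes, Rpl3, Rpl5, Rpl10 and Rpl24 among them, were seen only there. A filter on low signal kept 87 member probe sets of 39 genes. The 9 under it were 1 probe set each of Rpl27a, Rpl39l, Rpl3l, Rps16, Rps18, Rps24, Rps3, Rps4l and Rps4x.

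Both groups were satellite cells, the stem cells that lie along muscle fibres, sorted as YFP-positive cells from mice 10 weeks old, 2 weeks after tamoxifen, and not cultured. All mice carried Pax7-CreERT2, a tamoxifen-dependent Cre made in Pax7-expressing cells, and the Rosa-YFP reporter, and all received tamoxifen. Control mice had Calcr +/+ and the conditional knockout (cKO) mice had Calcr flox/flox. Each group had 2 arrays, numbered 1 and 2 in the titles and called biological replicates there, so a mean rests on n = 2. The labels do not say how many mice went into each.

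Cells make the different ribosomal proteins in matched amounts, and their messages begin with a tract of pyrimidines (the 5' TOP motif) through which mTORC1 signalling sets how strongly they are translated. Their promoters commonly hold sites for ETS factors such as GABP. In resting stem cells ribosome production is kept low and rises on activation. Several ribosomal proteins also act off the ribosome, for instance by binding Mdm2 and so stabilising p53.

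The promoters of the members shared sequence features that the choice of members did not use. RefSeq (build GRCm38.p6) gave 300 bases around the start, 250 before to 50 after it, for 45 entries of 37 of the 43 genes. The ETS core CCGGAA, searched on both strands (TTCCGG on the other), was in 24 of the 45 entries, or 53.3%, against 14.9% of all 32851 promoters in the table. The tract CTTTC, searched on the transcript strand from 15 bases before to 15 bases after the start, was in 10 of 45, or 22.2%, against 4.05% of all promoters. On the opposite strand (GAAAG) it was in 0 of 45, or 0%, against 3.6%. For the large subunit the shares were 54.2% and 29.2%, and for the small subunit 52.4% and 14.3%. The 2 motifs can overlap, in CTTTCCGG. A match describes letters and not a binding site.

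The following 75 bases, 60 before and 15 from the annotated start on, are shown because these genes return in the comparison below. Capitals mark CTTTC or CCGGAA. Rpl35 (chr2:39005117-39005191, minus strand) had the tract at 2 places, once ending just before its start and once just after it, Rps10 (chr17:27635230-27635304, minus) had both motifs, and Rpl37 (chr15:5116553-5116627, plus) and the first of the 2 Rps27l starts (chr9:66946026-66946100, plus) had the ETS core. Rps9 (chr7:3703981-3704055, plus) had neither in this stretch.
Rpl35: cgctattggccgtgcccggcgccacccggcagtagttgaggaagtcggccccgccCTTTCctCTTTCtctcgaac
Rps10: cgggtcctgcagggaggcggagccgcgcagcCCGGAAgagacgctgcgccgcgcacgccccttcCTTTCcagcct
Rpl37: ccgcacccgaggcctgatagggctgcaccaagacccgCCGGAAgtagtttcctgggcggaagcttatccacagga
Rps27l: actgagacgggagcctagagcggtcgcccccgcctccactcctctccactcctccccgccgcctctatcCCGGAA
Rps9: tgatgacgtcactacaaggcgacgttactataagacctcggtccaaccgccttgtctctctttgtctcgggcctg

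The values were MAS5 signals, 1 per probe set and array, compared as log2(signal + 1). Over all probe sets the median signal was 70.4 and 64.4 on control 1 and 2 and 68.8 and 57.9 on cKO 1 and 2. Calcr, the deleted gene, had a signal of 1346 ± 110.3 in control and 626 ± 82.0 in cKO arrays (SD, n = 2 each). All 11 listed satellite cell marker genes passed the filter, and their signals summed to 21215 and 28662 on control 1 and 2 and to 20011 and 21123 on cKO 1 and 2. Calcr is itself on this list, and its fall there was fixed by the design. Of the 19 probe sets of these genes 17 were lower in cKO cells (16 after either rescaling described below). Without overlap 5 (26.3%) were lower, against 13.5% of all kept probe sets, and Calcr and Chrdl2 were among these. The median of the 19 was -0.26 on the log2 scale, -0.57 without control 1 and 0.087 without control 2. The part of these markers in the ribosomal protein values was not tested. In bulk RNA, fewer cells of a type and less RNA per cell cannot be told apart. Summed signals of other cell types also differed between arrays of the same group. From array 1 to array 2, leukocyte and muscle fibre sums moved in opposite directions in control and cKO cells. The endothelial markers (11 of 12 genes kept) summed to 13424 and 2256 on control 1 and 2 and to 11989 and 2780 on cKO 1 and 2. Pericyte and smooth muscle markers (8 of 8) summed to 16540 and 10872 and to 18760 and 8607, and leukocyte markers (6 of 11) to 1062 and 2071 and to 982 and 258. Fibro-adipogenic markers (4 of 6) summed to 8772 and 10693 and to 9392 and 9914, and muscle fibre markers (10 of 11) to 4846 and 2234 and to 2560 and 3944. No kept marker was at 0 on any array, and the part of these cell types in the ribosomal protein values was not tested.

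Taken as a family, ribosomal protein transcripts lay close together in control and cKO cells. The cKO minus control difference had a median of -0.052 on the log2 scale over the 87 kept member probe sets (quartiles -0.15 and -0.016), beside -0.056 over all 22519 kept probe sets and -0.046 over 11231 others of like signal, those between the 10th and the 90th percentile of the members' mean (signals 242 to 7704). That range is wide, and most of these others were dimmer than most members, with a median signal of 577 against 4876. Bands of narrower signal are given below. Of the members 68 were lower and 19 higher in cKO cells, 78.2% lower against 58.9% of all kept probe sets. That split moved with scaling, to 47 lower and 40 higher after quantile normalization (54.0% lower against 49.0% of all kept) and to 32 lower and 55 higher with each array centred on its median (36.8% against 44.0%), where the members' median was 0.040. It also depended on single arrays, since the median was 0.050 without control 2, -0.14 without control 1, -0.020 without cKO 1 and -0.082 without cKO 2. The cKO arrays were both below the 2 control arrays for 8 members, or 9.20%, where 13.5% of all kept probe sets and 12.4% of those of like signal were. Both lay above for 1 member, 1.15%, against 7.87% and 7.6%.

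No member passed limma at an adjusted p under 0.05, nor did any of the kept probe sets (0%). At an unadjusted limma p under 0.05 the count of members was also 0, where 0.506% of kept probe sets were lower and 0.218% higher (0.534% and 0.169% of those of like signal). None was at least 2-fold apart without overlap, as 0.426% (lower) and 0.12% (higher) of kept probe sets and 0.169% and 0.0267% of those of like signal were. The adjusted limma p rounded to 0.99999 for every member. With 2 arrays a group the smallest exact 2-sided permutation p for a single value is 0.333. A p that misses the threshold does not show that the groups are alike, and the intervals of the difference given below show what these arrays could have missed.

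**Figure D1:**
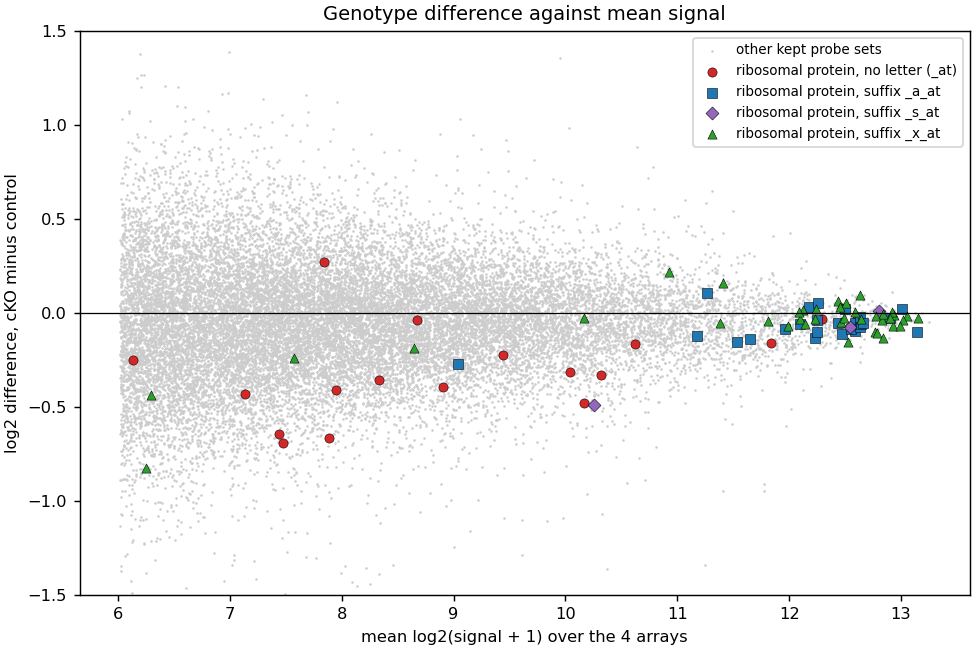
Log2 difference, cKO minus control, of each kept probe set against its mean log2(signal + 1) over the 4 arrays. Grey points are the other kept probe sets, of which 25 lie beyond the axis ends at 1.5, and coloured symbols are the 87 ribosomal protein probe sets by suffix class. The bright members at the right sit near 0, and most members to the left of a mean of 12, the red circles above all, lie below the line.

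Most members were bright. At a mean log2 signal of 12 and above (a signal of about 4095) stood 54 member probe sets of 29 genes, among them Rpl4, Rpl8, Rpl11, Rpl19, Rpl38, Rps2, Rps19 and Rps29. Their median difference was -0.032, beside -0.038 for the 358 other probe sets as bright, and single values ran from -0.16 (Rps18) to 0.098 (Rpl35). Their SEs ran from 0.093 to 0.19, and the 95% intervals of all 54 together reached from -0.52 to 0.46. In this band 39 were lower and 15 higher, but the sign of the median and the split turned with scaling (0.010 after quantile normalization, 0.060 with centred arrays, where 22 and 9 were lower) and the median was 0.059 without control 2, 0.014 without cKO 1, -0.083 without cKO 2 (46 lower) and -0.13 without control 1, where all 54 were lower and the other bright probe sets had a median of -0.085. In 2 of these 54 (3.70%) the cKO arrays were both below the controls, against 73 of the 358 others (20.4%), and in 0 and 15 they were both above. After quantile normalization 2 members lay below and 6 above, against 8.1% and 11.5% of the others, and with centred arrays 0 lay below and 0 above, against 2.51% and 3.91%.

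What the bright members shared was a difference between array numbers that crossed the genotypes. Averaged over the 2 groups, all 54 read higher on the arrays numbered 2 than on those numbered 1 (median 0.15 on the log2 scale). So did 233 of the 358 other bright probe sets (65.1%, median 0.058). Within 1 group this did not hold for every member. For Rpl11 and Rpl6 cKO 2 was below cKO 1, and for Rps28 1451101_a_at control 2 was below control 1. Control 2 was the highest array for 44 of the 54 (81.5%) and for 51.4% of the 358 others. Control 1 was the lowest for 35 of the 54 and for 132 of the 358. Among the number 1 arrays the members' cKO minus control median was 0.031, with 35 of 54 higher in cKO, and among the number 2 arrays it was -0.10, with 9 of 54 higher. The 358 others had 0.0016 (181 higher) and -0.077 (97 higher). All 22519 kept probe sets had 0.046 (12437 higher) and -0.16 (7914 higher), so this change of sign was not particular to the members. The endothelial and pericyte sums given above were lower on the number 2 arrays in both groups. Averaged over the groups, 17 of the 19 satellite cell marker probe sets read higher there. The part of either in the members' values was not tested.

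**Figure D2:**
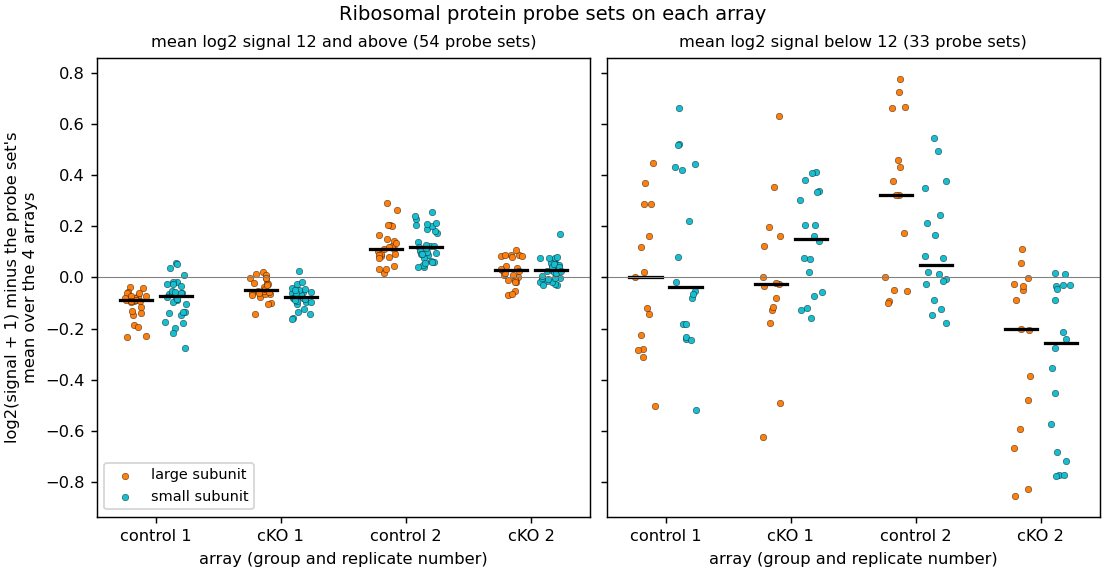
Log2(signal + 1) of each ribosomal protein probe set on each array, minus its own mean over the 4 arrays, for 54 bright probe sets (left) and 33 dimmer ones (right). Points are probe sets, orange for the large and blue for the small subunit, and bars are medians. By the medians, both number 2 arrays sit above both number 1 arrays on the left in either subunit, and on the right cKO 2 is the lowest array.

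Large and small subunit had medians close to each other. Among the 39 kept large subunit probe sets 29 were lower and 10 higher in cKO cells, with a median of -0.052, and 2 were lower without overlap. Among the 48 of the small subunit 39 were lower and 9 higher, with a median of -0.063, 6 lower and 1 higher without overlap (over all kept probe sets 13.5% and 7.87%). After quantile normalization 2 of the large subunit (5.13%) lay below and 4 (10.3%) above without overlap, and 5 and 5 (10.4% each) of the small. Of all kept probe sets 10.6% then lay below and 11.1% above. The difference between the subunits was not tested. Leaving out control 2 turned both medians, to 0.057 and 0.034. Quantile normalization left 20 of 39 and 27 of 48 lower, and centring 14 of 39 and 18 of 48.

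Below the bright band the members' differences were farther below 0 at lower signal. The median was -0.12 for the 17 member probe sets between a mean log2 of 10 and 12 (14 lower, 3 higher), -0.25 for the 6 between 8 and 10 (6 lower) and -0.44 for the 10 below 8 (9 lower, 1 higher). Other probe sets in these bands had medians of -0.048, -0.046 and -0.069. With centred arrays 9 of 17, 5 of 6 and 9 of 10 members were lower, and after quantile normalization 11 of 17, 5 of 6 and 9 of 10. Of the 16 members below 10, 14 had their lowest value on cKO 2, the array that also had the lowest overall median. The other probe sets in these bands also had their lowest median signal on cKO 2, 115 below 8 and 425 between 8 and 10. How many of those were lowest on cKO 2 was not counted, so the 14 cannot be told from a shift of the whole array. Without cKO 2 the members' median was 0.23 between 8 and 10 and -0.073 below 8, and without cKO 1 it was -0.74 and -0.88. The controls moved it too, to -0.036 and -0.26 without control 1 and to -0.47 and -0.61 without control 2. Between 10 and 12 it was -0.29 without control 1 but 0.039 without control 2, with 7 lower and 10 higher. A measure of RNA quality, the ratio of Gapdh signal at the 3' end to that at the 5' end, was 1.71 on cKO 2 and 1.54 to 1.59 on the others, while that of Actb was lowest on cKO 2 at 0.991, and their part was not tested.

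**Figure D3:**
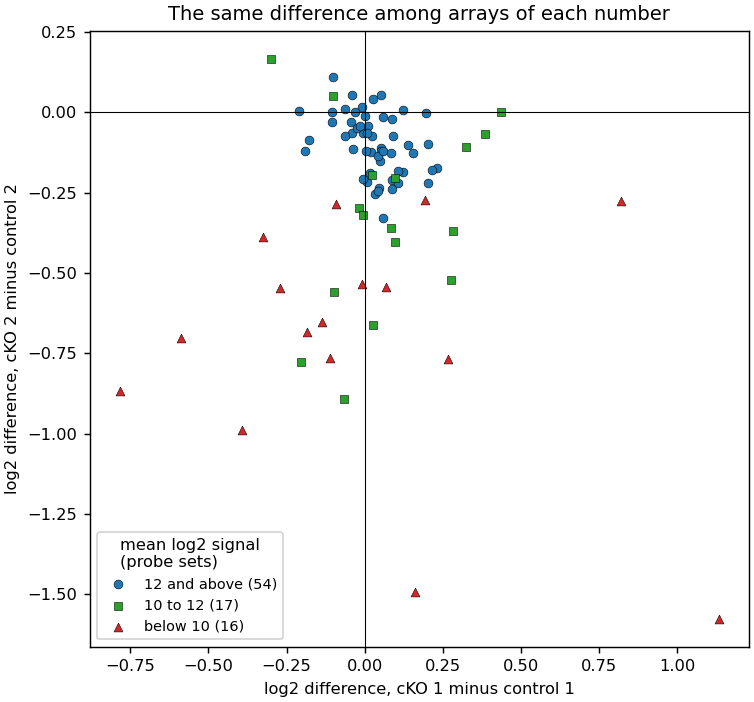
Log2 difference between cKO and control among the number 2 arrays against the same among the number 1 arrays, 1 point per kept ribosomal protein probe set, coloured by mean log2 signal. Only 12 of 87 points lie above the horizontal line, but points lie on either side of the vertical one, where 51 of 87 are above 0, and the red triangles of the dimmest probe sets reach farthest down. Of all 22519 kept probe sets, which are not drawn, 7914 were above 0 among the number 2 arrays and 12437 among the number 1 arrays.

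The suffix of a probe set, which says how specific its probes are, went with signal. Probe sets without a letter (_at) match 1 transcript, those in _a_at match transcripts of 1 gene, those in _s_at match transcripts of different genes, and those in _x_at hold probes that also resemble unrelated sequences, for ribosomal proteins often processed pseudogenes. The 20 kept _at members, of 19 genes, had a median of -0.28, with 18 lower, 2 higher and 5 (25%) lower without overlap, while all 16407 kept _at probe sets had a median of -0.054 and 13.3%. The 25 _a_at members had a median of -0.061 (20 lower, 5 higher, 0 without overlap), the 3 _s_at members -0.075 and the 39 _x_at members -0.030 (28 lower, 11 higher, 3 lower and 1 higher without overlap). All kept _a_at probe sets had 13.4% lower and 6.88% higher without overlap, and all kept _x_at 16.4% and 6.14%. After quantile normalization 3 _x_at members (7.69%) lay below and 6 (15.4%) above, where 10.6% and 11.1% of all kept probe sets did. Quantile normalization left the _at median at -0.21 with 15 of 20 lower, and centring at -0.19 with 14 of 20 lower. The same scalings left 17 and 9 of the 25 _a_at members lower, and 13 and 8 of the 39 _x_at members. For the _at members, the median was -0.19 without control 1, -0.15 without control 2, -0.44 without cKO 1 and -0.069 without cKO 2. Of the 20 _at members 16 were below a mean log2 of 12, with a median of -0.34 (-0.29 after quantile normalization, -0.25 with centred arrays), and the 4 above it (Rpl19, Rpl22, Rpl27 and Rpl27a) had a median of -0.032.

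Probe sets of the same gene differed in the same manner. Of the 39 kept genes 20 had several kept probe sets, and in 8 of them the signs differed. The dimmest probe set of a gene had the lower difference in 14 of 20, by a median of -0.11. In the 11 genes whose dimmest and brightest probe sets were at least 2 log2 units apart, the dimmest was below the brightest in 10, by a median of -0.33, and below 0 in 11. Averaged over the 2 groups, the brightest read higher on the number 2 arrays in all 11 of these genes. The dimmest, averaged in the same way, read lower there in 8. With 1 probe set per gene, the brightest or the dimmest, the data give Rpl35 at 0.019 or -0.69, Rpl22 at 0.0081 or -0.49, Rps3 at -0.021 or -0.48, Rps24 at -0.037 or -0.40, Rps10 at -0.11 or -0.43 and Rps9 at -0.13 or -0.65.

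**Figure D4:**
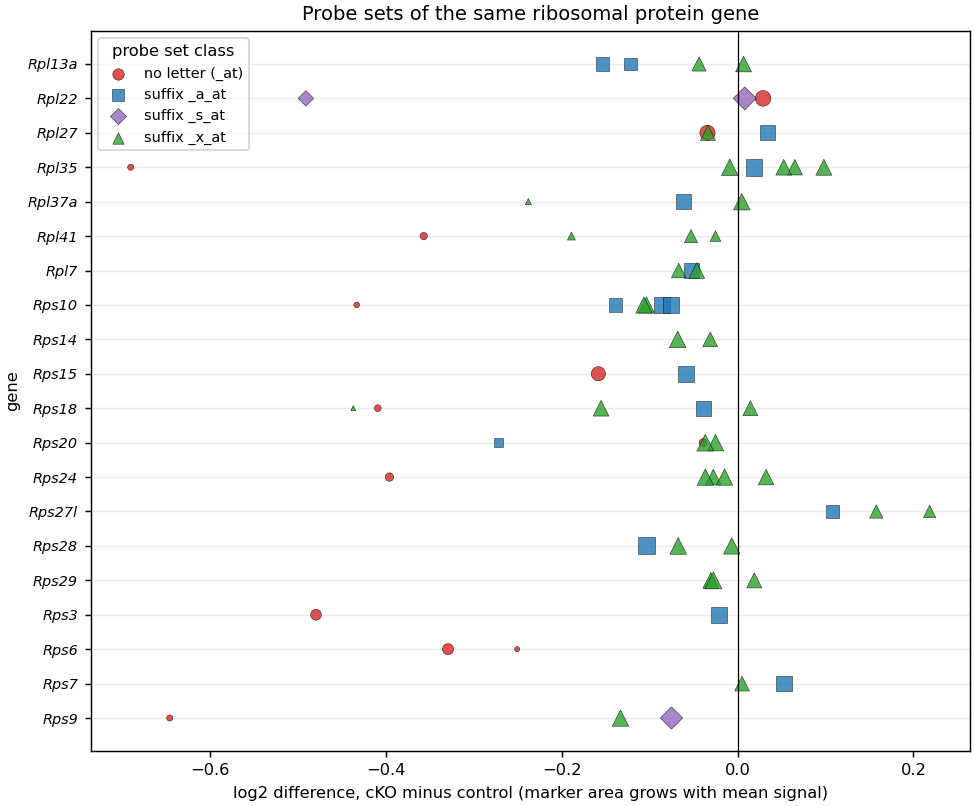
Log2 difference, cKO minus control, of every kept probe set in the 20 genes with several, 1 row per gene. Colour and shape give the suffix class, and marker area grows with mean signal. Large markers gather near 0, small red circles and small triangles lie to the left, and only in Rps27l and Rps7 do all markers lie to the right of 0.

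Rpl37, a zinc-binding protein of the large subunit, had the smallest limma p of all members. Its probe set 1438291_x_at read 84.3 and 119.8 in control cells and 48.6 and 65.2 in cKO cells. Both cKO arrays were below both control arrays. The cKO signal of 48.6 lay under the filter of 63.9, and that of 65.2 just above it. The probe set passed on its mean over all arrays (signal 75.3), while the mean of the cKO arrays alone was 56.9. Its passing therefore rested on the control arrays, and the difference was read at signals around the filter. The cKO minus control difference was -0.83 on the log2 scale (SE 0.43, 95% interval -1.83 to 0.18).

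Rpl35 sits at the mouth of the tunnel through which the nascent chain leaves the ribosome. Its _at probe set 1454833_at read 228 and 221 in control cells and 174 and 111 in cKO cells, and the groups did not overlap. The difference was -0.69 (SE 0.37, 95% interval -1.56 to 0.18), and it was -1.01 without cKO 1 and -0.37 without cKO 2. Its other 5 probe sets stood between -0.0089 and 0.098. After quantile normalization 1434231_x_at, 1436840_x_at and 1455950_x_at lay above without overlap, at 0.13, 0.11 and 0.087, where 11.1% of all kept probe sets lay above. With centred arrays they overlapped. The brightest, 1416243_a_at, read 7496 and 8980.1 in control cells and 8255 and 8367 in cKO cells, so that the cKO arrays lay between the control arrays, with a difference of 0.019 (SE 0.11, 95% interval -0.25 to 0.29).

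Rps3, a small subunit protein at the mRNA entry channel that also has a role in DNA repair, also had a probe set without overlap. That probe set, 1455600_at, read 1096 and 1669 in control cells and 1048 and 898 in cKO cells. The cKO arrays were lower, but cKO 1 lay close under control 1. The difference was -0.48 (SE 0.28, 95% interval -1.13 to 0.17), and it ranged from -0.78 to -0.18 when 1 array was left out. The brighter 1435151_a_at read 5924 and 6946 in control and 6284 and 6359 in cKO cells, with overlap and a difference of -0.021 (SE 0.12) that turned to 0.015 after quantile normalization.

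Rps6 is the small subunit protein phosphorylated by S6 kinase below mTORC1, and its phosphorylation is a common readout of growth signalling. Probe set 1416142_at read 1261 and 1628 in control cells and 1178 and 1104 in cKO cells, again without overlap, though with centred arrays (difference -0.24) the groups overlapped. The difference was -0.33 (SE 0.23, 95% interval -0.88 to 0.22), and was -0.51 to -0.15 with 1 array left out. The dim second probe set, 1453466_at, read 58.3 and 97.8 and then 70.3 and 57.0, and the groups overlapped. These values concern the transcript and not the phosphorylated protein.

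Rps18 and Rps9, small subunit proteins of the head and of the mRNA entry side, were the only bright members without overlap. Rps18 read 6125 and 6323 in control cells and 5366 and 5819.8 in cKO cells on 1455572_x_at, a difference of -0.16 (SE 0.11, 95% interval -0.42 to 0.11). Rps9 read 7521 and 7820.0 in control and 6643 and 7361 in cKO cells on 1434624_x_at, a difference of -0.13 (SE 0.11, 95% interval -0.38 to 0.12). With centred arrays both overlapped, at -0.063 and -0.041, and without cKO 1 they stood at -0.097 and -0.059. Other bright probe sets of both genes overlapped, with differences of 0.014 and -0.039 for Rps18 and -0.075 for Rps9. The dim probe sets were farther down, at -0.41 and -0.44 for Rps18 and -0.65 for Rps9. The other 2 members without overlap, both from the small subunit and both at -0.16, were Rps15 (1416089_at) and Rps25, and with centred arrays these overlapped too, at -0.066 and -0.071.

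Rps27l was the one gene with several kept probe sets of which all, 3 in number, were higher in cKO cells by more than 0.1. It is a paralogue of Rps27 and a known p53 target gene. On 1423254_x_at it read 1657 and 1963 in control cells and 2243 and 1964 in cKO cells, the one member with both cKO arrays above both control arrays, though cKO 2 and control 2 were nearly level. The difference was 0.22 (SE 0.20, 95% interval -0.25 to 0.68). Its other probe sets stood at 0.16 and 0.11 with overlapping arrays, and the second of these, 1450925_a_at, was at -0.021 without control 1. After quantile normalization both lay above without overlap, at 0.22 and 0.16, where 11.1% of all kept probe sets lay above. With centred arrays the first, 1435429_x_at, lay above at 0.25 and the second overlapped. Rps27 itself read 159.6 and 272 in control and 282 and 224 in cKO cells on its single-symbol probe set, a difference of 0.27 (SE 0.39) that was -0.11 without control 1.

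Several other members were dim and varied widely between arrays of 1 group. Rpl12, of the stalk base of the large subunit, read 490.1 and 1148 in control and 1076 and 384 in cKO cells, so that number 1 and number 2 arrays ran opposite ways, and its SE of 0.57 was the largest among the members. Rpl14 read 954 and 1446 in control and 973 and 915 in cKO cells, where control 2 stood above the rest (difference -0.32, SE 0.28). Rpl41, the shortest ribosomal protein, was at -0.36, -0.19, -0.025 and -0.053 on 4 probe sets, from the dimmest to the brightest.

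Other paralogues and tissue-restricted members gave little signal or mixed values. Rpl22, an RNA-binding protein needed for T cell development, read 6686 and 7550.4 in control and 7113 and 7177 in cKO cells on its brightest probe set, a difference of 0.0081 (SE 0.11). Its dimmest, 1448398_s_at, read 1004 and 2094 and then 871 and 1222, a difference of -0.49 (SE 0.37) that control 2 set, since it was 0.039 without that array. Rpl39, which lines the exit tunnel, read 236 and 374 in control and 264 and 133 in cKO cells, overlapping, with a difference of -0.67 (SE 0.45) that was -0.17 without cKO 2 and -1.16 without cKO 1. Its paralogue Rpl39l, best known from testis, read 29.9 and 2.65 and then 30.9 and 16.1, under the filter. Rpl3l, a paralogue of Rpl3 made in striated muscle, was also under it, with 34.0 and 17.1 in control and 8.37 and 1.77 in cKO cells, and was not tested. Rps4x, which is X-linked, read 6535 and 6671 in control and 6077 and 6678 in cKO cells (difference -0.052, SE 0.11, and 0.041 with centred arrays), and its relative Rps4l was under the filter.

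Members with functions of their own outside general translation had narrow intervals where their probe sets were bright. Rpl11, which binds Mdm2 and stabilises p53 under ribosomal stress, read 5632 and 5847 in control and 5867 and 5791 in cKO cells, overlapping, with a difference of 0.023 (95% interval -0.24 to 0.28). Rpl38, needed for translation of Hox messages in the embryo, read 8171 and 8988 and then 8223 and 8725 (-0.017, 95% interval -0.25 to 0.22). Rpl10a, found on a subset of ribosomes, read 7219.7 and 8287 and then 7342 and 7875 (-0.025, 95% interval -0.29 to 0.24). For the last of these, quantile normalization gave 0.0069, and Rpl38 also turned, to 0.020.

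Rps19 and Rps14, whose loss underlies Diamond-Blackfan anaemia and the anaemia of the 5q- syndrome, were lower by small amounts with overlapping arrays. Rps19 read 4421 and 5758 in control and 4554 and 4861 in cKO cells, a difference of -0.10 (95% interval -0.47 to 0.27) that was 0.090 without control 2. Rps14 had differences of -0.031 and -0.068 on its probe sets, both above 0 with centred arrays. Rpl13a, which can leave the ribosome to silence inflammatory messages, ran from -0.15 to 0.0068 over 4 probe sets, and control 2 was the highest array on 3 of them. Rps20 had -0.025 and -0.037 on its bright probe sets and -0.039 and -0.27 on its dim ones, with SEs of 0.10 for each of the former and 0.39 and 0.43 for the latter. Rps25, which helps start translation from internal entry sites, read 1664 and 1666 in control and 1658 and 1334 in cKO cells, so its difference of -0.16 (SE 0.21) came from cKO 2 and was -0.0063 without it.

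Ribosomal proteins with other kinds of symbols were listed apart. Of 12 listed genes 7 were on the array under 1 symbol, with 9 kept probe sets, 7 lower and 2 higher (5 lower after quantile normalization, 3 with centred arrays). Their median was -0.056, and 0 were without overlap, where 13.5% of all kept probe sets lay below and 7.87% above. After quantile normalization 1 of the 9 (11.1%) lay above, beside 11.1% of all kept. Without control 2 the median of the 9 was 0.10 with 2 of 9 lower, and without control 1 it was -0.17 with 9 of 9 lower. Rplp0, of the acidic stalk, read 5101 and 6464 in control and 5694 and 5665 in cKO cells (-0.016, SE 0.14), and Rpsa, also known as the laminin receptor, had -0.056 (SE 0.12). None had an unadjusted limma p under 0.05.

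Elongation factors and other genes with a 5' TOP tract (17 of 18 listed genes, 40 kept probe sets) had a median of -0.081, with 32 lower and 8 higher. In 11 of the 40 (27.5%) the cKO arrays were both below the controls and in 0 above, beside 13.5% and 7.87% of all kept probe sets. These counts were 6 (15%) and 2 (5%) after quantile normalization, where 10.6% and 11.1% of all kept probe sets lay below and above. With centred arrays they were 0 and 0, against 8.61% and 11.9% of all kept. Quantile normalization left 26 lower. Centring left 18 lower and turned the median to 0.011, and leaving out control 2 to 0.0069. Btf3, the beta subunit of the nascent polypeptide-associated complex, read 4751 and 5133 in control and 3898 and 4129 in cKO cells, a difference of -0.30 (SE 0.13), without overlap, though the groups overlapped with centred arrays. Eef1a1, which brings aminoacyl-tRNA to the ribosome, was at -0.069 (SE 0.11), and Pabpc1, the cytoplasmic poly(A)-binding protein, at -0.20 (SE 0.16).

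Ribosome biogenesis genes, which make and assemble the subunits in the nucleolus, were mostly lower in cKO cells, by amounts that depended on single arrays, cKO 2 among them. Of 41 listed genes 39 were kept with 77 probe sets, 67 lower and 10 higher, with a median of -0.21 (-0.14 and 61 lower after quantile normalization, -0.12 and 55 lower with centred arrays). In 20 (26%) both cKO arrays were below and in 1 above, beside 13.5% and 7.87% of all kept probe sets. Quantile normalization gave 15 (19.5%) and 3 (3.9%), beside 10.6% and 11.1% of all kept. Centred arrays gave 13 (16.9%) and 2 (2.6%), beside 8.61% and 11.9%. Rrs1, an assembly factor of the large subunit, read 1959.8 and 1733 in control and 1691 and 1088 in cKO cells, a difference of -0.44 (SE 0.26). Ncl (nucleolin) read 3742 and 3703 and then 3619 and 2923 (-0.19, SE 0.16), and Nop58, a core protein of box C/D particles, read 2886 and 2872 and then 2796 and 2180.2 (-0.22, SE 0.18). In all 3 genes cKO 2 was the lowest array. The list median among number 1 arrays was 0.12 and among number 2 arrays -0.47, and without cKO 2 it was -0.00095, with 39 lower and 38 higher. All kept probe sets then had a median of 0.031, with 46% lower. The list median was -0.10 without control 2 (55 lower), -0.28 without control 1 (71 lower) and -0.39 without cKO 1 (71 lower). None of these probe sets had an unadjusted limma p under 0.05.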

How the data were processed

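RNA of sorted satellite cells was biotin-labelled by a small sample assay and hybridised to 1 array per sample, per the labels' protocols. The authors deposited MAS5 signals, linear intensities, per the submitters' processing notes. The target to which MAS5 scaled the arrays is not stated there. They were used as log2(signal + 1) without further normalization. Adding 1 makes fold differences smaller at very low signals, and only slightly so at signals above the filter. Probe sets other than the 64 AFFX controls were kept at a mean log2 over the 4 arrays of at least the overall median (signal 63.9). Symbols came from the platform annotation, and all 43 member genes were found under the same symbol in the RefSeq gene table. Groups were compared with limma 3.58.1 in R 4.3.3 (lmFit, eBayes with intensity trend, no block, Benjamini-Hochberg over 22519 probe sets, 2 residual and 5.32 prior degrees of freedom). All p-values and 95% intervals are from this fit, 2-sided. The limma fit and the overlap rule were also run on simulated data. Those had independent noise on each array and no shared effect of array number, so they do not cover such an effect.

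Members, lists and the rules for named genes were chosen with earlier results of these data known. Named were up to 6 members a direction without overlap and with the smallest p, paralogous or tissue-restricted members, and members with roles of their own. Genes with kept probe sets of opposite sign spanning 1 log2 unit, and members 2-fold apart without overlap, were also to be named, and there were none. Rpl12, Rpl14, Rpl41, Rps10, Rps15, Rps24 and the examples of bands, classes and other lists were taken from the results. The number of arrays limits the precision, and MAS5 files give no counting depth. Titles give both groups the same numbers but do not say that equal numbers pair samples. Deviations of same-numbered arrays correlated at 0.43 over probe sets, with 2 pairs, so the number was fitted as a block only as an alternative. Other alternatives were a pseudocount of 32, quantile normalization, median centring, other filters, no trend, single arrays left out, _at probe sets only, and 1 value per gene. The signal bands (mean log2 of 8, 10 and 12) were added after the data were seen. Promoter sequences are from RefSeq.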

Additional observations from a re-analysis of the deposited data

How the results depend on the processing

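The count of members passing adjusted limma p under 0.05 was 0 in every alternative run, with a smallest adjusted p between 0.99981 and 0.999995. Over all kept probe sets 5 passed with the replicate number as a block and 0 to 5 with 1 array left out (5 without cKO 1). The block called 0 members and changed no member's call, while probe sets at unadjusted p under 0.05 went from 163 to 473. By unadjusted p with a 2-fold difference 81 kept probe sets and 0 members passed. Members with both cKO arrays below both control arrays numbered 4 with centred arrays, 5 among _at probe sets, 5 with the brightest probe set per gene, 2, 0, 4 and 2 in the bands of rising signal, and 18 to 61 with 1 array left out (61 without control 1, 18 without control 2, 22 without cKO 1, 28 without cKO 2). Members above numbered 9 after quantile normalization, 2 with centred arrays, 2 without the filter, 0 among _at probe sets, 0 with the brightest probe set or the mean per gene, and 1 to 45 with 1 array left out (45 without control 2, 10 without cKO 1, 7 without cKO 2). A group of 1 array overlaps less by construction. Without control 1, control 2, cKO 1 and cKO 2, 40.2%, 32.3%, 42.9% and 25.3% of all kept probe sets lay below. Of the members 70.1%, 20.7%, 25.3% and 32.2% did. Above lay 24%, 29.2%, 19.8% and 29.1% of all kept and 1.15%, 51.7%, 11.5% and 8.05% of members. With centred arrays 8.61% of all kept lay below and 11.9% above, against 4.6% and 2.3% of members. Quantile normalization put 11.1% of all kept and 10.3% of members above. In the bands of rising signal 20%, 0%, 23.5% and 3.7% of members lay below, against 14.7%, 11.3%, 14.3% and 20.4% of the others. Among _at probe sets 25% of members and 13.3% of all kept lay below. With the brightest probe set per gene 12.8% of members did, beside 13.5% of all kept probe sets. The members' median was -0.28 with _at probe sets only and -0.44 in the lowest signal band, and relative to other probe sets of like signal it was -0.0061 overall (-0.041 without control 1, 0.058 without control 2, 0.096 without cKO 1, -0.12 without cKO 2) and -0.24 with _at probe sets only.

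Directions of named probe sets turned as follows, and the cause was not tested. After quantile normalization Rpl10a stood at 0.0069, Rpl38 at 0.020, Rpl13a 1455001_x_at at 0.0031, Rps14 1436586_x_at at 0.015, Rps3 1435151_a_at at 0.015 and Rps20 at 0.020, 0.011 and 0.014. With centred arrays Rps4x stood at 0.041, Rpl10a at 0.068, Rpl38 at 0.075, Rpl13a 1455001_x_at at 0.049, Rps14 at 0.061 and 0.024, Rps3 1435151_a_at at 0.071 and Rps20 at 0.053, 0.067 and 0.056. With 1 array left out, values that changed sign ran from -1.02 to 0.039, -0.19 to 0.25 and -0.080 to 0.096 for Rpl22, -0.11 to 0.65 for Rps27, -0.021 to 0.24 for Rps27l 1450925_a_at, -0.12 to 0.016 for Rps4x, -0.12 to 0.075 for Rpl10a, -0.0046 to 0.050 for Rpl11, -0.49 to 0.25, -0.45 to 0.15, -0.34 to 0.26 and -0.075 to 0.088 for Rpl13a, -0.086 to 0.052 for Rpl38, -0.24 to 0.18 and -0.16 to 0.022 for Rps14, -0.29 to 0.090 for Rps19, -0.47 to 0.39, -0.82 to 0.27, -0.091 to 0.041 and -0.087 to 0.013 for Rps20, -0.14 to 0.094 for Rps3 1435151_a_at and -0.62 to 0.12 for Rps6 1453466_at. No pseudocount, filter or trend alternative turned a named probe set.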
